A study of Homo sapiens with 5 samples.

Results

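The MAPK feedback and immediate early genes are 55 genes, measured by 80 probes, of the 20044 genes that had a named probe on the array. They were chosen by gene symbol, with earlier results of these data known. The choice holds the dual-specificity phosphatases (DUSP), the Sprouty, Spred and EGR families, and a fixed set. That set holds the FOS and JUN genes, IER2, IER3, IER5, ETV4, ETV5, PHLDA1, MYC, KLF2, KLF4, KLF6, KLF10, NR4A1, ZFP36, CCN1 (formerly CYR61) and CCN2 (formerly CTGF). BTG2, EGR2, DUSP13 and DUSP27 also fit the choice but had no named probe in the annotation used here. Of the 55 genes, 45 had a probe above background on at least 1 array and were tested.

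RNA was measured in 5 lines of gastric cancer cells, with 1 Illumina BeadChip array per line. NCI-N87, the sensitive line (1 array), is a human gastric cancer line with an amplified ERBB2 gene and responds to trastuzumab, an antibody that binds the ERBB2 receptor. The other 4 arrays hold N87-TR1 to N87-TR4, all labelled trastuzumab resistant. All 5 lines were grown in the same serum-containing medium and harvested before confluence, and the labels do not say whether trastuzumab was in the medium. Whether the numbered resistant lines come from separate selections or cultures is not stated in the labels, and p-values therefore rest on a spread that may be technical. All 5 arrays carry the same chip number.

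Growth factor receptors such as ERBB2 signal through RAS, RAF and MEK to the kinase ERK. ERK phosphorylates transcription factors that switch on the immediate early genes, among them EGR1, FOS and MYC, without new protein synthesis. Several products of the response act back on the pathway: DUSP phosphatases dephosphorylate MAP kinases, Sprouty and Spred proteins restrain RAS and RAF activation, and ZFP36 destabilises messenger RNAs.

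In the resistant lines 15 of the 45 tested genes were lower than in NCI-N87, 4 were higher and 26 did not pass the test (limma, Benjamini-Hochberg adjusted p under 0.05 over all 12478 genes tested). The same test called 23.1% of all genes, 10.5% lower and 12.5% higher. The median difference, resistant minus NCI-N87, was -0.70 on the log2 scale for the 45 genes and 0.07 for all genes tested. The lower genes included EGR1, FOS, FOSB, JUNB, DUSP6, SPRED1 and CCN2, and the higher genes were JUN, SPRY2, DUSP1 and IER5. NCI-N87 lay above all 4 resistant lines in 27 of the 45 genes, against 31.7% of all genes, and below all 4 in 11, against 36.9%, which puts it outside their range in 38 genes, against 68.6%. DUSP23 and JUNB entered the test through NCI-N87 alone and DUSP9 and EGR3 through resistant lines alone. With only the 35 genes detected on all 5 arrays, 10 were lower and 4 higher. Over all genes, 1462 of the 8701 so detected passed, against 2880 of 12478 in the main test. The number of higher genes was 2 without N87-TR2, and also 2 without N87-TR4, while 13 to 19 genes were lower when single lines were left out. The 19 came without N87-TR3, where calls over all genes also rose, to 3762 of 12405. Without N87-TR1, N87-TR2 or N87-TR4, calls over all genes numbered 2099 to 2315. In bulk RNA, fewer cells of a type and less RNA per cell cannot be told apart.

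**Figure D1:**
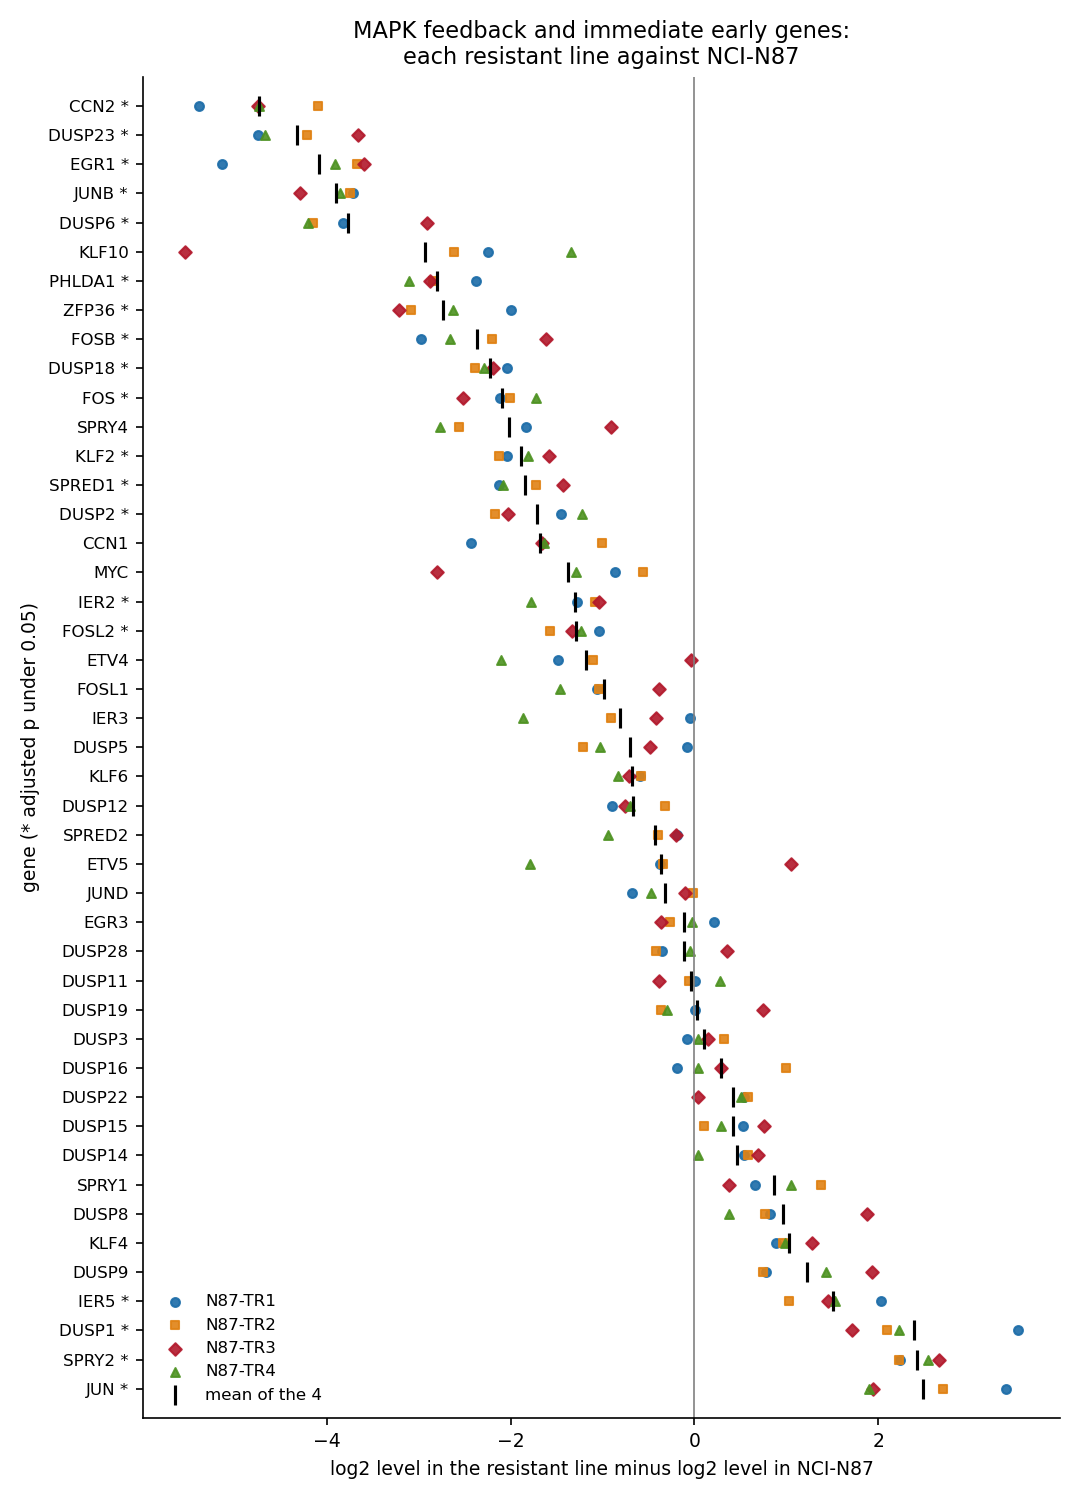
Log2 level in each resistant line minus the log2 level in NCI-N87 for the 45 tested genes, ordered by the mean difference. Coloured symbols stand for single lines, the black bar for the mean of the 4, and an asterisk marks an adjusted p under 0.05; in CCN2, at the top, the 4 lines average -4.74, and in JUN, at the bottom, 2.48.

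**Figure D2:**
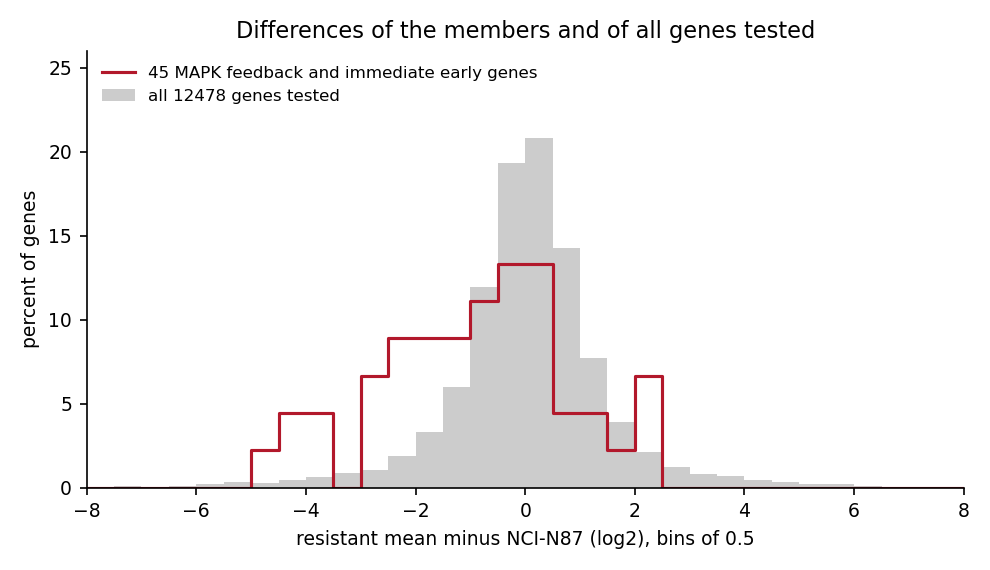
Percent of genes by log2 difference, resistant mean minus NCI-N87, in bins of 0.5, for the 45 genes (red line) and all 12478 genes tested (grey bars). The red line lies further to the left, with a median of -0.70 against 0.07.

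Each array detected between 10248 and 11069 genes, with median probe signals of 133.8 to 158.2, and between 38 and 43 of the 45 genes. ERBB2 itself was 5.45 ± 0.33 lower on the log2 scale in the resistant lines and FGFR3, a fibroblast growth factor receptor, 3.63 ± 0.32 higher. Epithelial markers separated the groups: 10 of 12 tested were lower in the resistant lines, and KRT19, CLDN7, ELF3, ESRP1, VIL1 and CLDN4 were not detected in any of them. The log2 summed level of the epithelial list was 16.50 in NCI-N87 and 11.12 to 12.09 in the resistant lines. Markers of other cell types gave no call, with 1 fibroblast, 4 leukocyte and 0 endothelial genes tested. The part of these markers in the results was not tested.

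Promoter sequence was available from the RefSeq promoter table of GRCh38.p14 for 43 of the 55 genes, as windows of 300 bases from 250 before to 50 after the gene start. Short motifs of factors that act in this response were searched on both strands. The EGR site, with the letters GCGNGGGCG, was found in 13 of the 43 genes (30.2%) and in 11.2% of all 27305 genes in the table. By test result, these were 3 of 15 lower genes (20.0%), 1 of 4 higher genes (25.0%) and 9 of 16 not past the test (56.2%). The median GC content was 68.7% for the 43 genes and 58.3% for all, and the EGR site is itself rich in G and C. The CRE, TGACGTCA, was found in DUSP1, DUSP8 and JUND (6.98% against 2.25%), and the CArG box, bound by serum response factor, in EGR1 alone (2.33% against 1.6%). The shares for the AP-1 site TGANTCA (9.3% against 9.37%), the ETS site CCGGAAG (6.98% against 12.2%) and the TATA box TATAAA (16.3% against 14%) are those of 4, 3 and 7 genes. A match describes the letters in the window and not binding, and sites outside the window were not searched.

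Promoters of 2 genes that were lower (EGR1 and DUSP2) and 2 that were higher (SPRY2 and DUSP1) in the resistant lines are shown because they carry the counted motifs in an early transcription factor, feedback phosphatases and a Sprouty gene. Each run gives the 250 bases before the gene start, 5′ to 3′ on the gene's strand, with the matches in capitals. In EGR1 the capitals mark an EGR site 198 bases and CArG boxes 105 and 83 bases before the start; in DUSP2, EGR sites 103 and 93 bases before it. In SPRY2 they mark EGR sites 134 and 41 bases before the start. Of its 3 windows only the 1 shown, chosen for its matches, holds an EGR site. In DUSP1 they mark the CRE at 125 and the TATA box at 30 bases. No match overlaps another of the motifs searched.
EGR1 (chr5:138465229-138465478, plus strand): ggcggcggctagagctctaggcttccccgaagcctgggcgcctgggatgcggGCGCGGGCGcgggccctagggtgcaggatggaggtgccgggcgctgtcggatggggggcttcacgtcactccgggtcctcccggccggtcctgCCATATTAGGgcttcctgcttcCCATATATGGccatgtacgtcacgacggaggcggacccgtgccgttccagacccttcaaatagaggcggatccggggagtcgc
DUSP2 (chr2:96145441-96145690, minus strand): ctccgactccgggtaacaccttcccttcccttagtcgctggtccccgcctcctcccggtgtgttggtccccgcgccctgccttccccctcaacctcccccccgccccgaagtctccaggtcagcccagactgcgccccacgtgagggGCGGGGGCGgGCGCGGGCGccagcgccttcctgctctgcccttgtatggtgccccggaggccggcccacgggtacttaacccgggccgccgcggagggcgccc
SPRY2 (chr13:80341127-80341376, minus strand): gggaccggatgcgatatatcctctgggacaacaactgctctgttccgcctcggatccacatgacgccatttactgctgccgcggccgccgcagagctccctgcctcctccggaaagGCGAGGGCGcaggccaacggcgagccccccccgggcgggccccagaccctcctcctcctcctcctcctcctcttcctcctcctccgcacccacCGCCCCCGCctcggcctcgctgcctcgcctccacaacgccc
DUSP1 (chr5:172771196-172771445, minus strand): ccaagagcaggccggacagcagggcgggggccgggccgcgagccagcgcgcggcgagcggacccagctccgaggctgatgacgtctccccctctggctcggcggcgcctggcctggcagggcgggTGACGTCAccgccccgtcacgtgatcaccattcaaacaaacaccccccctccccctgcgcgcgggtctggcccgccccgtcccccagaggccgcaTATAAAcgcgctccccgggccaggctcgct

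The MAPK phosphatases of the DUSP family remove phosphate from ERK, JNK or p38. Of 10 on the array, 7 were tested, of which DUSP6 and DUSP2 fell and DUSP1 rose. DUSP6, a cytoplasmic phosphatase selective for ERK and a common readout of ERK output, had a log2 level of 11.48 in NCI-N87 and 7.66, 7.33, 8.58 and 7.27 in N87-TR1 to N87-TR4. All 4 resistant lines lay far below NCI-N87, and N87-TR3 was the highest of them. The fall was 13.7-fold, or -3.77 ± 0.53 on the log2 scale (limma, adjusted p = 0.00296). A second DUSP6 probe read 9.39 in NCI-N87 and 4.74 to 4.98, below detection, in the resistant lines, at least 8.22-fold lower. DUSP2, a nuclear phosphatase induced by mitogens, read 8.39 in NCI-N87 and 6.94, 6.22, 6.36 and 7.17 in N87-TR1 to N87-TR4. It was detected in 3 of the 4 resistant lines, not in N87-TR3, and differed by -1.72 ± 0.44 (limma, adjusted p = 0.0316). The adjusted p was 0.0546 without N87-TR1 and 0.0583 without N87-TR2.

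DUSP1, a nuclear phosphatase that acts on p38, JNK and ERK and is also induced by stress, ran the other way. Its log2 level was 8.49 in NCI-N87 and 12.01, 10.59, 10.21 and 10.72 in N87-TR1 to N87-TR4, so that NCI-N87 was the lowest and N87-TR1 the highest. The rise was 5.24-fold, or 2.39 ± 0.64 (limma, adjusted p = 0.0387). The adjusted p was 0.0604 without N87-TR2, 0.0729 without N87-TR4, 0.0512 with cyclic loess and 0.0755 without a detection filter. DUSP5, a nuclear ERK phosphatase, read 9.53 in NCI-N87 and 9.45, 8.31, 9.04 and 8.49 in N87-TR1 to N87-TR4, a difference of -0.70 ± 0.48 that did not pass (limma, adjusted p = 0.341). Nor did DUSP8 (0.96), DUSP16 (0.29), both phosphatases of JNK and p38, or DUSP9 (1.22), which was below detection in NCI-N87, N87-TR1 and N87-TR2. DUSP4, the nuclear relative of DUSP2, DUSP7 and DUSP10 were not detected on any array.

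The atypical DUSPs lack the kinase-binding domain of the MAPK phosphatases, and most have other substrates. Of 13 on the array 10 were tested, and DUSP23 and DUSP18 fell. DUSP23 read 10.24 in NCI-N87 and 5.49 to 6.58 in the resistant lines, where it was below detection in all 4. It was at least 14.8-fold lower. DUSP23 entered the test through NCI-N87 alone, and its p-value (limma, adjusted p = 0.000957) uses a spread among levels below detection. DUSP18 read 10.73 in NCI-N87 and 8.69, 8.34, 8.54 and 8.44 in N87-TR1 to N87-TR4, with the resistant lines close together and 4.67-fold lower (-2.22 ± 0.30, limma, adjusted p = 0.00255). The other 8, DUSP3, DUSP11, DUSP12, DUSP14, DUSP15, DUSP19, DUSP22 and DUSP28, lay between -0.67 and 0.46 and did not pass. Probes disagreed for DUSP22: the brightest differed by 0.42, another by 0.43 and the dimmest of the detected probes by -2.26. That dimmest probe passed when every probe was tested (limma, adjusted p = 0.0194). DUSP21, DUSP26 and DUSP29 were not detected.

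Sprouty and Spred proteins are induced by growth factors and restrain RAS and RAF signalling. Of 7 on the array 5 were tested, with SPRED1 lower and SPRY2 higher. SPRY2 read 8.63 in NCI-N87 and 10.87, 10.86, 11.30 and 11.17 in N87-TR1 to N87-TR4. The 4 resistant lines lay within 0.43 of each other and 5.34-fold above NCI-N87 (2.42 ± 0.32, limma, adjusted p = 0.00248). SPRED1, which recruits the RAS inactivator neurofibromin, read 11.57 in NCI-N87 and 9.44, 9.84, 10.13 and 9.48 in N87-TR1 to N87-TR4. It was 3.59-fold lower (-1.84 ± 0.37, limma, adjusted p = 0.0135), and no resistant line reached the sensitive one.

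SPRY4 read 8.96 in NCI-N87 and 7.13, 6.40, 8.05 and 6.19 in N87-TR1 to N87-TR4. NCI-N87 was above all 4, but the wide spread among them left the difference of -2.02 ± 0.68 short of the threshold (limma, adjusted p = 0.0791). Without N87-TR3, the highest resistant line, the difference was -2.39 and the adjusted p 0.00796. The adjusted p was also under 0.05 with no background correction (0.0410), with the authors' processed values (0.0425) and with the mean of the probes (0.0217). A dimmer SPRY4 probe, detected in NCI-N87 alone, was at least 1.26-fold lower in the resistant lines. It passed when every probe was tested (limma, adjusted p = 0.0382), with a spread among levels below detection. SPRY1 (0.87) and SPRED2 (-0.43) did not pass, and SPRY3 and SPRED3 were not detected.

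EGR1, a zinc finger factor that is among the first genes induced by ERK, read 12.53 in NCI-N87 and 7.39, 8.86, 8.94 and 8.63 in N87-TR1 to N87-TR4. The resistant lines lay 16.9-fold lower, at -4.08 ± 0.60 (limma, adjusted p = 0.00386), with N87-TR1 the lowest. EGR3 was near the detection limit, at 6.20 in NCI-N87 and 5.83 to 6.41 in the resistant lines, and EGR4 was not detected.

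AP-1 is a dimer of a JUN protein with a FOS or another JUN protein, and all 7 subunit genes on the array were tested: FOS, FOSB, FOSL2 and JUNB fell, JUN rose, and FOSL1 and JUND did not pass. FOSB read 9.99 in NCI-N87 and 7.02, 7.79, 8.38 and 7.33 in N87-TR1 to N87-TR4, a 5.13-fold fall (-2.36 ± 0.52, limma, adjusted p = 0.0191). FOS read 8.45 in NCI-N87 and 6.33, 6.44, 5.94 and 6.73 in N87-TR1 to N87-TR4, and was below detection in N87-TR3. Its difference was -2.09 ± 0.37 (limma, adjusted p = 0.00822). JUNB, a JUN family protein that can oppose JUN, read 9.41 in NCI-N87 and 5.70, 5.67, 5.12 and 5.55 in N87-TR1 to N87-TR4. It was below detection in all 4 resistant lines and at least 8.36-fold lower. JUNB entered the test through NCI-N87 alone, and its p-value (limma, adjusted p = 0.000369) uses a spread among levels below detection. FOSL2, the FOS family protein Fra-2, read 8.28 in NCI-N87 and 6.71 to 7.24 in the resistant lines (-1.29 ± 0.32, limma, adjusted p = 0.0298). Its adjusted p was 0.0680 without N87-TR2, 0.0695 without N87-TR4 and 0.0585 with an intensity trend in the variance model.

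JUN, the main activating partner in AP-1 and a target of JNK, was the subunit that rose. Its log2 level was 9.69 in NCI-N87 and 13.08, 12.39, 11.63 and 11.59 in N87-TR1 to N87-TR4. Every resistant line was above NCI-N87, and N87-TR1 and N87-TR2 were above the other 2. The rise was 5.59-fold, or 2.48 ± 0.59 (limma, adjusted p = 0.0254). The adjusted p was 0.0540 without N87-TR2 and 0.0516 without a detection filter. FOSL1, an ERK-dependent FOS family member, differed by -0.99 ± 0.43 (limma, adjusted p = 0.152, and 0.0301 without N87-TR3), and JUND, the constitutive JUN member, by -0.32.

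**Figure D3:**
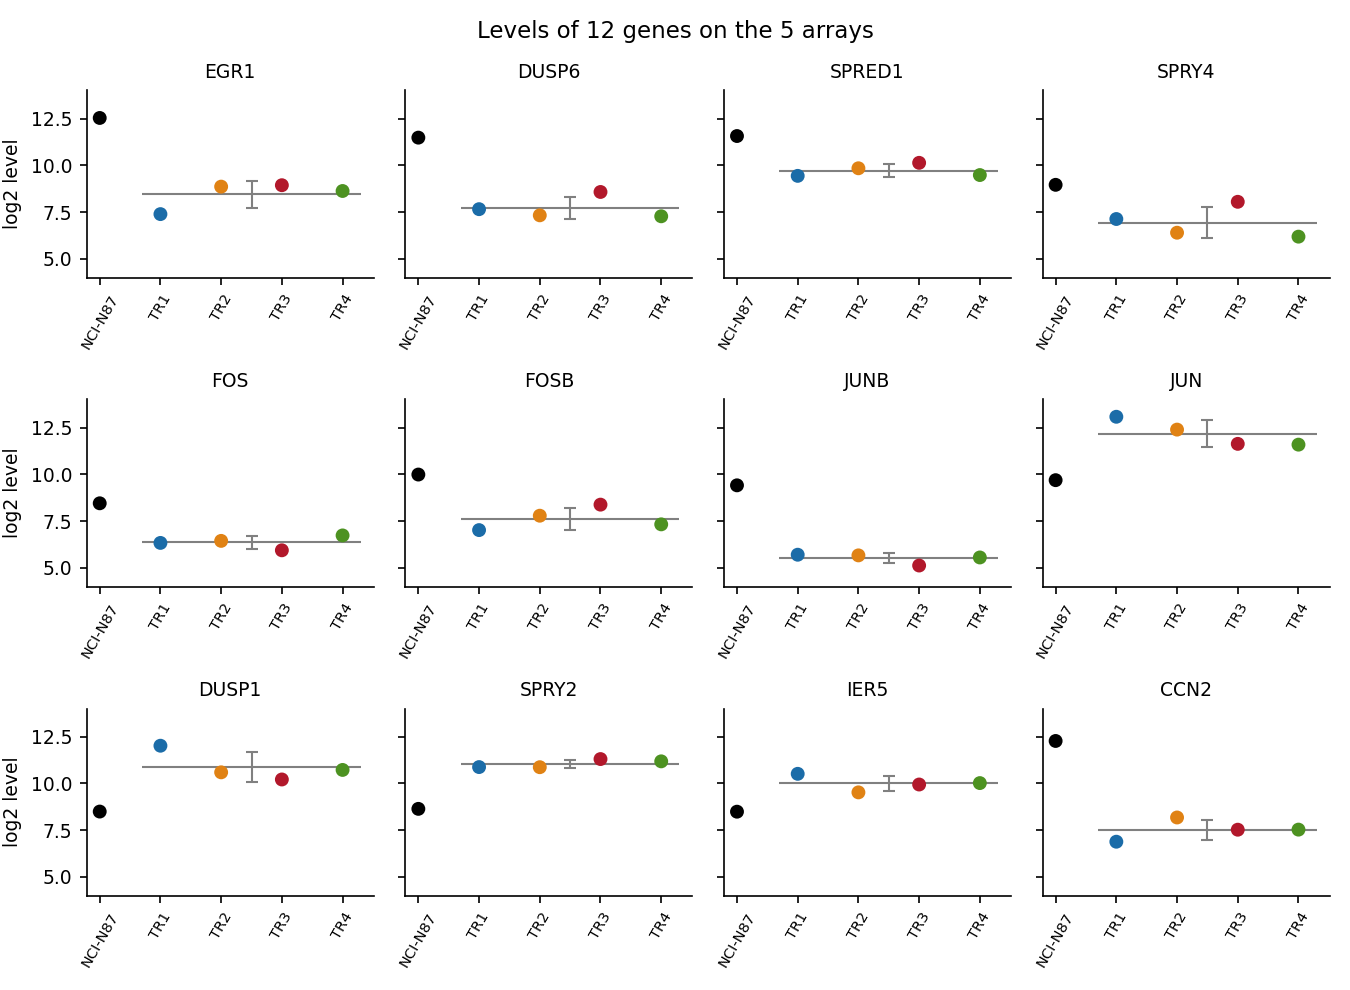
Log2 levels of 12 of the genes on the 5 arrays, with NCI-N87 in black and N87-TR1 to N87-TR4 in colours. The grey line is the mean of the 4 resistant lines and its bar the SD; JUN, DUSP1, SPRY2 and IER5 lie above NCI-N87 in all 4 lines and the other 8 genes below it.

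Heat shock and handling genes, which respond to stress in culture and at harvest, moved in both directions on the same arrays: of 11 tested 4 passed (36.4%, against 23.1% of all genes), and HSPA1B (4.50 ± 0.37) and HSPA1A (4.06 ± 0.31) were higher in the resistant lines and HSPB1 (-2.06 ± 0.34) and DNAJB1 (-1.90 ± 0.31) lower. HSPA1A and HSPA1B are nearly identical in sequence, so a probe may read both. The log2 summed level of the list was 17.09 in NCI-N87 and 17.23 to 17.59 in the resistant lines. Their part in the levels of JUN, DUSP1 and the other immediate early genes was not tested.

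Of the 3 IER genes, small nuclear or membrane proteins of the early response, IER2 fell, IER5 rose and IER3 did not pass. IER5, which binds heat shock factor, read 8.48 in NCI-N87 and 10.51, 9.52, 9.94 and 10.01 in N87-TR1 to N87-TR4, a 2.85-fold rise (1.51 ± 0.41, limma, adjusted p = 0.0397). The adjusted p was 0.0579 without N87-TR1, 0.0859 without N87-TR4, 0.0547 with cyclic loess and 0.0561 without a detection filter. IER2 read 9.46 in NCI-N87 and 7.69 to 8.42 in the resistant lines (-1.29 ± 0.37, limma, adjusted p = 0.0480). It lost the call in 7 of 15 alternatives, with an adjusted p of 0.0939 without N87-TR1, 0.0768 without N87-TR2 and 0.0789 without N87-TR4. IER3 read 10.24 in NCI-N87 and between 8.37, in N87-TR4, and 10.20, in N87-TR1.

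PHLDA1 and ZFP36 fell. ZFP36, the RNA-binding protein tristetraprolin that promotes decay of AU-rich messenger RNAs, read 11.04 in NCI-N87 and 9.05, 7.96, 7.82 and 8.42 in N87-TR1 to N87-TR4, a 6.64-fold fall (-2.73 ± 0.49, limma, adjusted p = 0.00910). PHLDA1, a pleckstrin homology domain protein induced by ERK, read 9.09 in NCI-N87 and 6.71, 6.24, 6.22 and 5.99 in N87-TR1 to N87-TR4. Its difference was -2.80 ± 0.36 (limma, adjusted p = 0.00206) on a probe detected in 2 of the resistant lines, N87-TR1 and N87-TR2. The other PHLDA1 probe read 10.26 in NCI-N87 and was below detection in all 4 resistant lines, at least 15.1-fold lower. The nuclear receptor NR4A1 was not detected on any array.

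Of the 4 Krüppel-like zinc finger factors, KLF2 fell and KLF4, KLF6 and KLF10 did not pass. KLF2 read 9.67 in NCI-N87 and 7.63, 7.54, 8.08 and 7.86 in N87-TR1 to N87-TR4, a 3.71-fold fall (-1.89 ± 0.33, limma, adjusted p = 0.00794). KLF10, an early gene of TGF-beta signalling, read 10.37 in NCI-N87 and 8.12, 7.76, 4.83 and 9.03 in N87-TR1 to N87-TR4. N87-TR3 stood apart below detection, and the difference of -2.93 ± 1.37 did not pass (limma, adjusted p = 0.178, and 0.0249 without N87-TR3). KLF4 differed by 1.03 ± 0.31 (limma, adjusted p = 0.0526). It passed without N87-TR3 (0.0399), with the mean of the probes (0.0468) and without a detection filter (0.0393). KLF6 differed by -0.68.

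MYC, a transcription factor of cell growth, read 12.77 in NCI-N87 and 11.91, 12.21, 9.97 and 11.48 in N87-TR1 to N87-TR4. NCI-N87 was above all 4, but the difference of -1.38 ± 0.79 did not pass (limma, adjusted p = 0.260). ETV4 and ETV5 are ETS factors of the PEA3 group that ERK induces. ETV4 read 7.17 in NCI-N87 and 5.69, 6.06, 7.12 and 5.06 in N87-TR1 to N87-TR4, and was detected in NCI-N87 and N87-TR3 only. Its difference was -1.18 ± 0.70 (limma, adjusted p = 0.279, and 0.0355 without N87-TR3, which leaves only resistant lines below detection). ETV5 read 9.68 in NCI-N87 and 9.31, 9.34, 10.73 and 7.89 in N87-TR1 to N87-TR4, so NCI-N87 lay within the resistant range.

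CCN1 and CCN2 are secreted matrix-associated proteins induced by growth factors and by YAP and TEAD. CCN2 showed the largest fitted difference of the 45 genes: 12.26 in NCI-N87 and 6.88, 8.17, 7.52 and 7.52 in N87-TR1 to N87-TR4. The fall was 26.7-fold, or -4.74 ± 0.48 (limma, adjusted p = 0.000737), and a second probe gave -3.87. CCN1 read 10.42 in NCI-N87 and 7.99, 9.41, 8.76 and 8.78 in N87-TR1 to N87-TR4. NCI-N87 was above all 4, but the difference of -1.68 ± 0.51 did not pass (limma, adjusted p = 0.0571). It passed in 7 of 15 alternatives, with adjusted p = 0.0357 without N87-TR2 and 0.0289 with no background correction. For 12 of the 45 genes several probes were detected, and their differences had the same sign in 10, DUSP11 and DUSP22 being the others.

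With 1 array on each side, single resistant lines against NCI-N87 allow no test, and all 4 share that control array. N87-TR1 held 20 of the 45 genes at least 2-fold lower than NCI-N87 and 4 at least 2-fold higher, against 17.1% and 19.2% of all genes. For N87-TR2 the counts were 21 lower and 6 higher, against 16.5% and 18.7%. N87-TR3 had 18 lower and 8 higher, against 17.6% and 22.2%. For N87-TR4 they were 24 lower and 6 higher, against 16.3% and 18.4%. The lower genes thus outnumbered the higher ones in each line, and the median difference of the 45 genes was -0.68, -0.58, -0.42 and -1.22 in N87-TR1 to N87-TR4.

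The genes also spread among the resistant lines. In 22 of the 45 (48.9%) the highest and lowest resistant lines were at least 2-fold apart, against 30.3% of all genes tested, and the median range was 0.99 against 0.74 on the log2 scale. Over the 35 genes detected in all 4 resistant lines 17 (48.6%) spread that far, against 24% of all genes so detected. Among these ETV5 spread by 2.84, MYC by 2.23 and SPRY4 by 1.86. KLF10, below detection in N87-TR3, spread by at least 2.35, and ETV4, below detection in 3 of the lines, by at least 0.96. The highest of the 4 lines was N87-TR3 in 19 genes, against 38.7% of all genes, and N87-TR4 in 4, against 20.4%. It was N87-TR1 in 12 (21.3% of all genes) and N87-TR2 in 10 (19.6%).

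Each resistant line was compared with the other 3, 4 comparisons in all, with the lone array assumed to vary like the rest. In N87-TR3, 1 of the 45 genes passed the limma test, against 0.954% of all genes tested. That gene was KLF10, at 4.83 in N87-TR3 and 8.30 ± 0.66 (SD, n = 3) in the other lines, which is at least 3.07-fold lower because it was below detection (limma, adjusted p = 0.0448, fitted difference -3.47 ± 0.50). The adjusted p was 0.0711 without N87-TR1 and 0.244 without N87-TR4. No gene passed in N87-TR1, N87-TR2 or N87-TR4 (limma, 0% of all genes), where 4, 1 and 2 of the 45 (8.89%, 2.22% and 4.44%) had an unadjusted p under 0.05, as had 4.13%, 2.6% and 1.41% of all genes.

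In N87-TR3, 12 of the 45 genes (26.7%) had an unadjusted p under 0.05, as had 2355 of the 12478 genes tested (18.9%). Among them 10 were higher in N87-TR3, including ETV5 (1.88 ± 0.60, limma, adjusted p = 0.183), SPRY4 (1.48 ± 0.42, adjusted p = 0.145), DUSP8 (1.22 ± 0.31, adjusted p = 0.117) and DUSP6 (1.16 ± 0.30, adjusted p = 0.122). MYC was -1.89 ± 0.35 relative to the other 3 lines (limma, adjusted p = 0.0714). MYC passed in 5 of the alternatives: with no background correction (0.0251), the authors' processed values (0.0257), detection on all 5 arrays (0.0315), every probe tested (0.0466) and an intensity trend in the variance model (0.0207). Of the other genes that were higher in N87-TR3, ETV4 was detected in that resistant line alone, DUSP9 there and in N87-TR4, and DUSP23 in no resistant line, and no difference is given for them. The directions among the 2355 genes were not counted, and N87-TR3 was the highest resistant line in 38.7% of all genes tested.

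**Figure D4:**
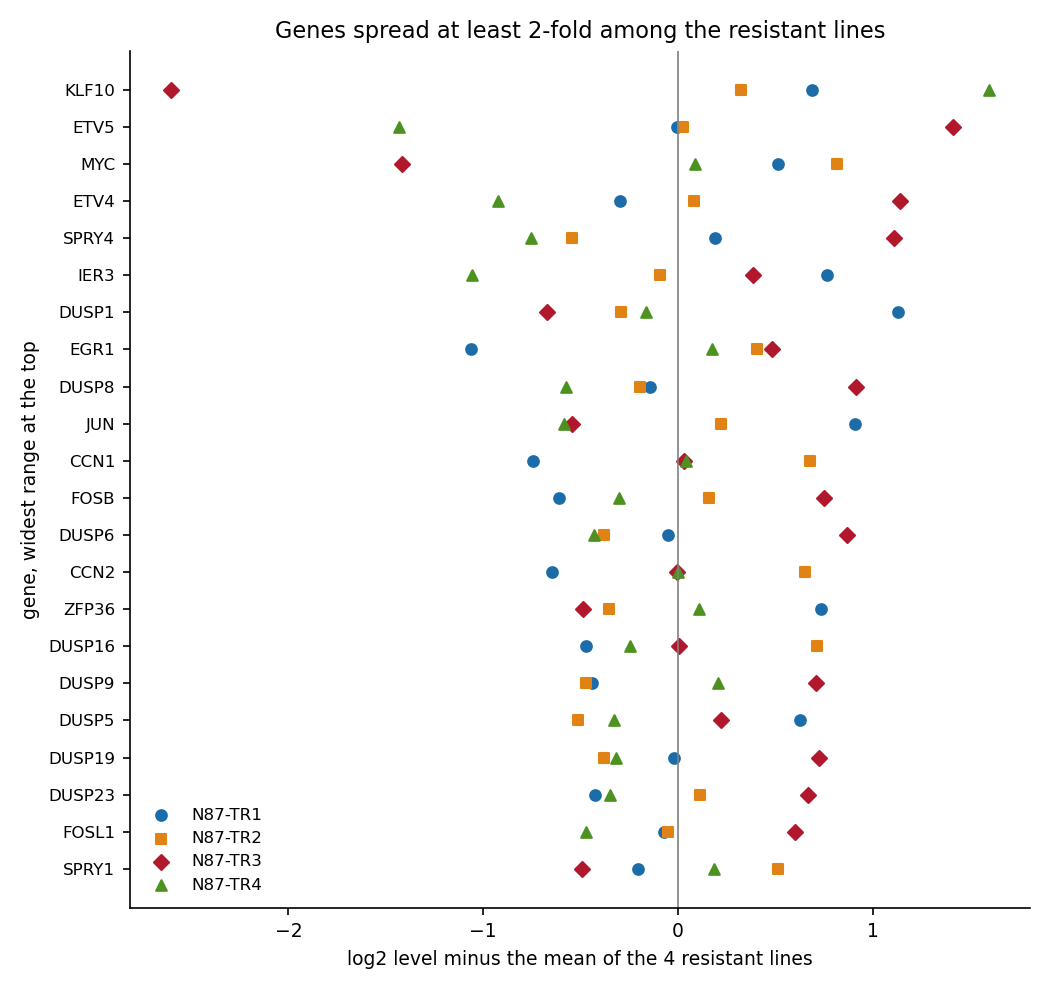
Log2 level in each resistant line minus the mean of the 4, for the 22 genes that spread at least 2-fold among them, with the widest range at the top. In MYC the N87-TR3 symbol lies lowest and in ETV5 highest; for 5 of the genes, KLF10, ETV4, DUSP9, DUSP23 and FOSL1, some levels are below detection.

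Of 20 tested genes of the Raf-MEK-ERK cascade 2 (10%) were lower in the resistant lines and 0 higher, where 10.5% of all genes were lower and 23.1% passed in either direction: the adaptor SHC1 (-1.86 ± 0.35, limma, adjusted p = 0.0111) and NF1, which encodes neurofibromin, a RAS inactivator (-1.45 ± 0.34, adjusted p = 0.0243). MAPK3, which encodes ERK1, differed by 0.97 (adjusted p = 0.0742) and MAP2K1, which encodes MEK1, by -0.01 (adjusted p = 0.987). Of 15 genes of the JNK and p38 cascades 2 passed (13.3%): the p38 isoform MAPK13 was 11.6-fold lower and the JNK isoform MAPK10 was higher, on a probe that read 5.10, below detection, in NCI-N87 and 6.12 to 7.09 in the resistant lines. Of 19 ERK effectors 4 passed (21.1%): the transcription factor ETS2 (10.9-fold) and the kinase RPS6KA4 (4.37-fold) were lower, and the kinases RPS6KA2 (at least 2.56-fold) and RPS6KA5 (3.49-fold) higher.

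Among 26 other growth factor induced genes 5 fell and 4 rose (34.6%, against 23.1% of all genes). EPHA4, an ephrin receptor, was at least 9.79-fold higher and ATF3, a stress-induced factor, 7.65-fold higher, while EPHA2 was 7.14-fold and CD44, a hyaluronan receptor, 5.12-fold lower. Of 17 tested genes on the YAP and TEAD list 4 fell and 0 rose (23.5%). Over all genes 10.5% were lower and 23.1% passed in either direction. The 4 were ANKRD1 (at least 3.92-fold), LATS2 (3.13-fold), the coagulation receptor F3 (-3.63 ± 0.33) and WWTR1. WWTR1 encodes TAZ, a co-activator of TEAD and not a target. F3 was detected in 2 of the resistant lines and WWTR1 in 0, where the bound was at least 1.48-fold. ANKRD1 and WWTR1 entered the test through NCI-N87 alone. Of 14 ribosomal protein genes 1 rose and 1 fell (14.3%).

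**Figure D5:**
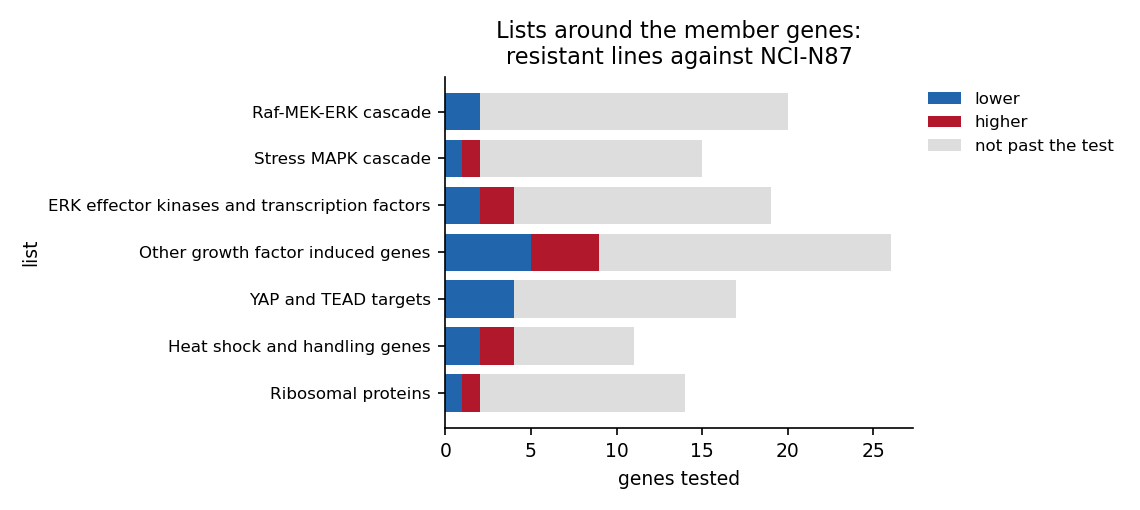
Number of genes lower (blue), higher (red) or not past the test (grey) in the resistant lines against NCI-N87, for the lists around the 45 genes. The Raf-MEK-ERK list holds 2 lower genes of 20 tested, and the list of other growth factor induced genes 5 lower and 4 higher of 26.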

How the data were processed

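The scanner table, as the authors deposited it, gives a linear, unnormalized intensity for every probe and array, and a detection p-value from the negative controls. A second deposited table holds their processed intensity (median 146.3 on each array), made by a method not given in the sources used here. Only GenomeStudio is named in the submitters' processing notes, and RNA was extracted with Trizol per the labels' protocols. The deposited intensities went through neqc of limma 3.58.1 in R 4.3.3 (background correction, offset 16, quantile normalization), which gives log2 levels. Of 47318 probes, 30111 had 1 gene symbol through the platform annotation, 8 several and 17199 are unnamed here, and 30072 symbols were updated through RefSeq.

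Testing required a probe with 1 symbol whose detection p was under 0.01 somewhere among the 5 arrays, and of several the probe with the highest mean was used. This kept 12478 genes from 16784 probes. The resistant and sensitive arrays were compared with lmFit and eBayes, two-sided, with Benjamini-Hochberg adjustment over all genes. The spread is that among the 4 resistant lines (3 residual and 3.83 prior degrees of freedom), which assumes that NCI-N87 varies as they do. An exact two-sided rank-sum test of 1 array against 4 cannot go below p = 0.4. Where no probe was detected in a group, the fold is "at least": the brighter mean over the dim arrays' lowest detected level, or the probe's own level where that is higher. Log2 differences carry the fit's standard errors and levels carry SDs, and the number of arrays limits the precision. The script was tested on simulated data.

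The genes and lists were chosen with earlier results of these data known. Every one of the 55 genes could be named, with values per array for those past a test and for EGR1, FOS, JUN, MYC, DUSP1, DUSP4, DUSP5, DUSP6, SPRY2, SPRY4, ETV4 and ETV5. From each surrounding list at most 4 genes past the test were to be named, largest difference first. MAPK3 and MAP2K1 were named outside this rule, after their values were seen. The epithelial markers not detected in any resistant line, more than 4, were also named outside it. Heat shock, cell type and ribosomal lists served as technical descriptions. Alternatives covered background correction, offset, normalization, the authors' values, detection filters, probe rules, the variance model and runs without 1 of the resistant lines. Those for the surrounding lists and for single lines against NCI-N87 were added after seeing the data.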

Additional observations from a re-analysis of the deposited data

Results flagged for a closer look

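Among the 4 resistant lines DUSP22 had 1 line far from the others. N87-TR3 read 11.18 and the other lines 11.65 to 11.72, and the gap made up 0.861 of the range, above Dixon's critical value for 4 samples. A second detected DUSP22 probe ran the other way, with N87-TR3 the highest at 9.72 and the other lines at 9.06 to 9.42. DUSP22 was the only such gene of the 45 (2.22%), against 6.5% of all genes tested, and chance flags about 1 in 20 groups.

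KLF10 differed between N87-TR3 and the other 3 resistant lines by -3.47 on the log2 scale (limma, adjusted p = 0.0448). Both detected probes of KLF10 were below detection in N87-TR3 and above it in the other 4 lines, the second reading 5.45 against 7.51 to 8.20 in the other resistant lines. Over 13 alternatives the difference lay between -3.75 and -2.0 and the adjusted p between 0.0164 and 0.244, under 0.05 in 7.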

How the results depend on the processing

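No paired analysis was possible because the sensitive group holds only 1 array, so the groups share fewer than 2 replicate numbers. Of the 19 genes past the test, 13 kept their call in all alternatives in which they were tested. The other 6 (DUSP1, DUSP2, FOSL2, IER2, IER5 and JUN) lost it in some, and none of the 19 changed direction. The number of higher genes was 2 with cyclic loess and 2 without a detection filter, and 2 to 5 when single lines were left out. The number of lower genes was 13 to 19 when single lines were left out, and calls over all genes ranged from 2099 to 3762 in the same runs. Genes called for N87-TR3 against the other 3 numbered 2 with no background correction and 2 with the authors' values, 3 with every probe tested and 3 with an intensity trend. They numbered 0 with an offset of 50, 75th percentile scaling, no detection filter or the mean of the probes, and 0 to 1 when lines were left out. The number was 0 throughout for the other lines. With detection required on all 5 arrays, the genes at least 2-fold lower numbered 12 in N87-TR1 and 13 in N87-TR2, and the higher list genes 3. All genes past the test then numbered 1462 of 8701, against 2880 of 12478. With no background correction 5 genes were at least 2-fold higher in N87-TR3. List genes numbered 5 to 9 higher, against 7, and 11 to 21 lower, against 14, when lines were left out. Signs turned, without a call, for DUSP11 (0.0719 with the mean of the probes; -0.1453 to 0.0732 when lines were left out), DUSP19 (-0.0838 with cyclic loess; -0.2179 to 0.1503 when lines were left out), DUSP22 (-0.47 with the mean of the probes), DUSP3 (-0.0861 with cyclic loess) and ETV5 (-0.8336 to 0.1129 when lines were left out). Cyclic loess moved the median of all genes by -0.11. The cause of these changes was not tested, beyond the fewer genes or arrays that a filter or a left-out line leaves. Levels below detection carry only bounds.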
